A study of Mus musculus with 9 samples.

Results

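The genes examined here are 10 genes of lysine breakdown, of the separate route by which lysine gives carnitine, and of carnitine uptake and acyl transfer. They were chosen by their known function, with earlier results of these data known. They were matched by symbol to the deposited gene tables, which list 54532 genes. Aass, Aldh7a1 and Gcdh belong to lysine breakdown, Tmlhe, Aldh9a1 and Bbox1 to carnitine synthesis, Slc22a5 to carnitine uptake, and Cpt1a, Cpt2 and Crat to acyl transfer. Of these 10 genes, Aass had 0 counts in all 9 libraries, and Bbox1 had 0 counts in 5 libraries. The other 8 genes had counts in every library, from 131 to 6557.

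Most lysine is broken down in mitochondria through saccharopine to acetyl-CoA, and a separate, small amount of protein-bound lysine is methylated, released when the protein is degraded, and turned into carnitine. Carnitine carries long-chain fatty acids into mitochondria: an acyl group is moved from coenzyme A to carnitine at the outer membrane, exchanged across the inner membrane, and moved back to coenzyme A in the matrix. In adipocytes the same carnitine system also handles acetyl groups and branched-chain acyl groups, while the last step of carnitine synthesis is known mainly from liver and kidney.

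Poly A RNA was sequenced from 3T3-L1, a mouse embryo fibroblast-derived preadipocyte line with no engineered allele named in the labels, in 9 libraries of 3 groups with 3 libraries each. Undifferentiated cells were grown in high glucose DMEM with 10% BCS and held at confluence for 3 days. Differentiated cells were taken to the same confluent state and then given a medium with 10 μg/mL insulin, dexamethasone at 1 μM, rosiglitazone at 1 μM and IBMX at 0.5 mM. Lysfree cells received that differentiation medium prepared without lysine, in which the study still measured traces of it. By the study's methods, both differentiation media were built on a DMEM free of arginine and lysine, with FBS in place of BCS and arginine added back, and lysine was added back for Differentiated only. Base medium and serum thus changed together with the hormones and cannot be told apart from them in comparisons with Undifferentiated. Nothing in the labels says that the replicates came from separate cultures, so the p-values measure the spread between these libraries, which may be technical. Since each group is a mixture of cells of 1 line at different stages, a lower level cannot be told apart between fewer cells of a type and less RNA per cell.

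The libraries held 15880144 to 21806693 counts each. Summed over 9 adipocyte markers, CPM (counts scaled to library size) ranged from 1998 to 2262 in Undifferentiated, from 18910 to 20340 in Differentiated and from 2211 to 3178 in Lysfree, where Lep was at 0. Summed over 7 preadipocyte and fibroblast markers, they ranged from 32720 to 35460, from 6975 to 7074 and from 11170 to 11570 in the same order. The part of this shift in the results on lysine and carnitine genes was not tested. Macrophage markers summed to at most 6.31 CPM with Adgre1 at 0, muscle markers to at most 14.8 CPM with Myod1 and Myh4 at 0, endothelial markers to at most 1.05 CPM, and brown adipocyte markers to at most 0.318 CPM with Ucp1 at 0. Hepatocyte markers summed to at most 0.128 CPM, with Alb and Ttr at 0 in all groups. Lysfree 1 stood apart from its replicates: the chi-square per degree of freedom of its counts was 39.6 against Lysfree 2 and 40.7 against Lysfree 3, while Lysfree 2 and Lysfree 3 gave 2.67. Results on Lysfree cells are therefore given with and without that library where it mattered.

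Between Lysfree and Differentiated, 8.14% of 24130 genes rose and 10.5% fell at least 2-fold (edgeR adjusted p under 0.05). Of the 10 genes, 6 changed by that much, 1 up and 5 down. Promoters are shown for the 5 of them with a RefSeq window in the set used here, so that the sequence before each start can be read beside the levels that follow. Each sequence is the 250 bases before the RefSeq start in GRCm38.p6, read along the gene's strand, with capitals marking every match to a GC box (GGGCGG), a C/EBP site (TTGCNNAA), a C/EBP-ATF site (TGATGNAA), an E-box (CACGTG), a DR1-type repeat (AGGNCA repeated after 1 base) or the TATA box with the letters TATAAA, searched on both strands. The windows are chr8:84893922-84894171 on the minus strand for Gcdh, chr1:167349741-167349990 on the plus strand for Aldh9a1, chr11:53891704-53891953 on the minus strand for Slc22a5, chr19:3323051-3323300 on the plus strand for Cpt1a and chr4:107923590-107923839 on the minus strand for Cpt2.
Gcdh: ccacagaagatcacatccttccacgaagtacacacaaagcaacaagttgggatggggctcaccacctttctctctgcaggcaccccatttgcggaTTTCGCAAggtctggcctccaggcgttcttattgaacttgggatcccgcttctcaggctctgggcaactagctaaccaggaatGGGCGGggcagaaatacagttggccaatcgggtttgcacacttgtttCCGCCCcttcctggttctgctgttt
Aldh9a1: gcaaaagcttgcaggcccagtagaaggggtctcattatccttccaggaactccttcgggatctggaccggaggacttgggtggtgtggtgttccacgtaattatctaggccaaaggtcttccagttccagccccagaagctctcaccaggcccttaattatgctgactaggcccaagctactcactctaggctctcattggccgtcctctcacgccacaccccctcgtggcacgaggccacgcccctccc
Slc22a5: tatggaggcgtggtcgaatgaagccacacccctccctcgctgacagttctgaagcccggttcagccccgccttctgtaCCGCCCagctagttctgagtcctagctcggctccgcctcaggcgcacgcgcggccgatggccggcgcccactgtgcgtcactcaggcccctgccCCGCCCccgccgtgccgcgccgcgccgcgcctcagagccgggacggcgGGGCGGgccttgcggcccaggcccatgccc
Cpt1a: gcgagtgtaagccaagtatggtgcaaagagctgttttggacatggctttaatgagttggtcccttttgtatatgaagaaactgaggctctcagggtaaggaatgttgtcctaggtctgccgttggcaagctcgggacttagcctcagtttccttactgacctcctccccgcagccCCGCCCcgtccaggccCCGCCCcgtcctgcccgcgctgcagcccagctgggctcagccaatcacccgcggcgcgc
Cpt2: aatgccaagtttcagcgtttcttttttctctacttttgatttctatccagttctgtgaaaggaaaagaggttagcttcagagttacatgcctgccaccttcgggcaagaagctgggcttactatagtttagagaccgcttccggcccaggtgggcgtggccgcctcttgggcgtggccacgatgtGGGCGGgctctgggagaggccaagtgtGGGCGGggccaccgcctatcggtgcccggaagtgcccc

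The Cpt1a and Cpt2 windows each held 2 GC boxes, the Slc22a5 window held 3, and the Gcdh window held 2 together with 1 C/EBP match. The Aldh9a1 window matched none of the 6 motifs. None of the 7 windows found for the 10 genes held a DR1-type repeat, a C/EBP-ATF site or an E-box. Among all 32851 promoter windows of the same length, 32.7% held a GC box, 9.56% a C/EBP site, 3.45% a C/EBP-ATF site, 6.02% an E-box, 12.4% a TATA box and 0.338% a DR1-type repeat. Cpt1a and Cpt2, which moved in opposite directions below, thus showed the same kind and number of matches in these windows. A match is a description of letters, and its absence says only that those letters were not in the window. G and C made up 59.6% of the Cpt1a window, 56.8% of the Cpt2 window, 53.6% of the Gcdh window, 57.6% of the Aldh9a1 window and 73.6% of the Slc22a5 window, against a median of 52.4% over all windows.

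To see which steps were transcribed, levels were compared per gene length as FPKM (fragments scaled to gene length and library size). In Undifferentiated cells the order was Aldh9a1, Cpt1a, Cpt2, Tmlhe, Crat, Aldh7a1, Gcdh, Slc22a5 and Bbox1, with mean FPKM from 37.0 down to 0.233, and the libraries of Crat and Aldh7a1 overlapped. In Differentiated cells it was Aldh9a1, Crat, Cpt2, Tmlhe, Gcdh, Aldh7a1, Cpt1a and Slc22a5, with mean FPKM from 104.5 down to 8.17. Cpt1a had thus moved from the second to the seventh place, and its libraries overlapped those of Aldh7a1, as those of Crat overlapped those of Cpt2. In Lysfree cells the order was Cpt1a, Aldh9a1, Cpt2, Tmlhe, Aldh7a1, Crat, Gcdh and Slc22a5, with mean FPKM from 22.4 down to 2.76. The leading 4 of these could not be separated from their neighbours by the spread of the libraries.

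**Figure D1:**
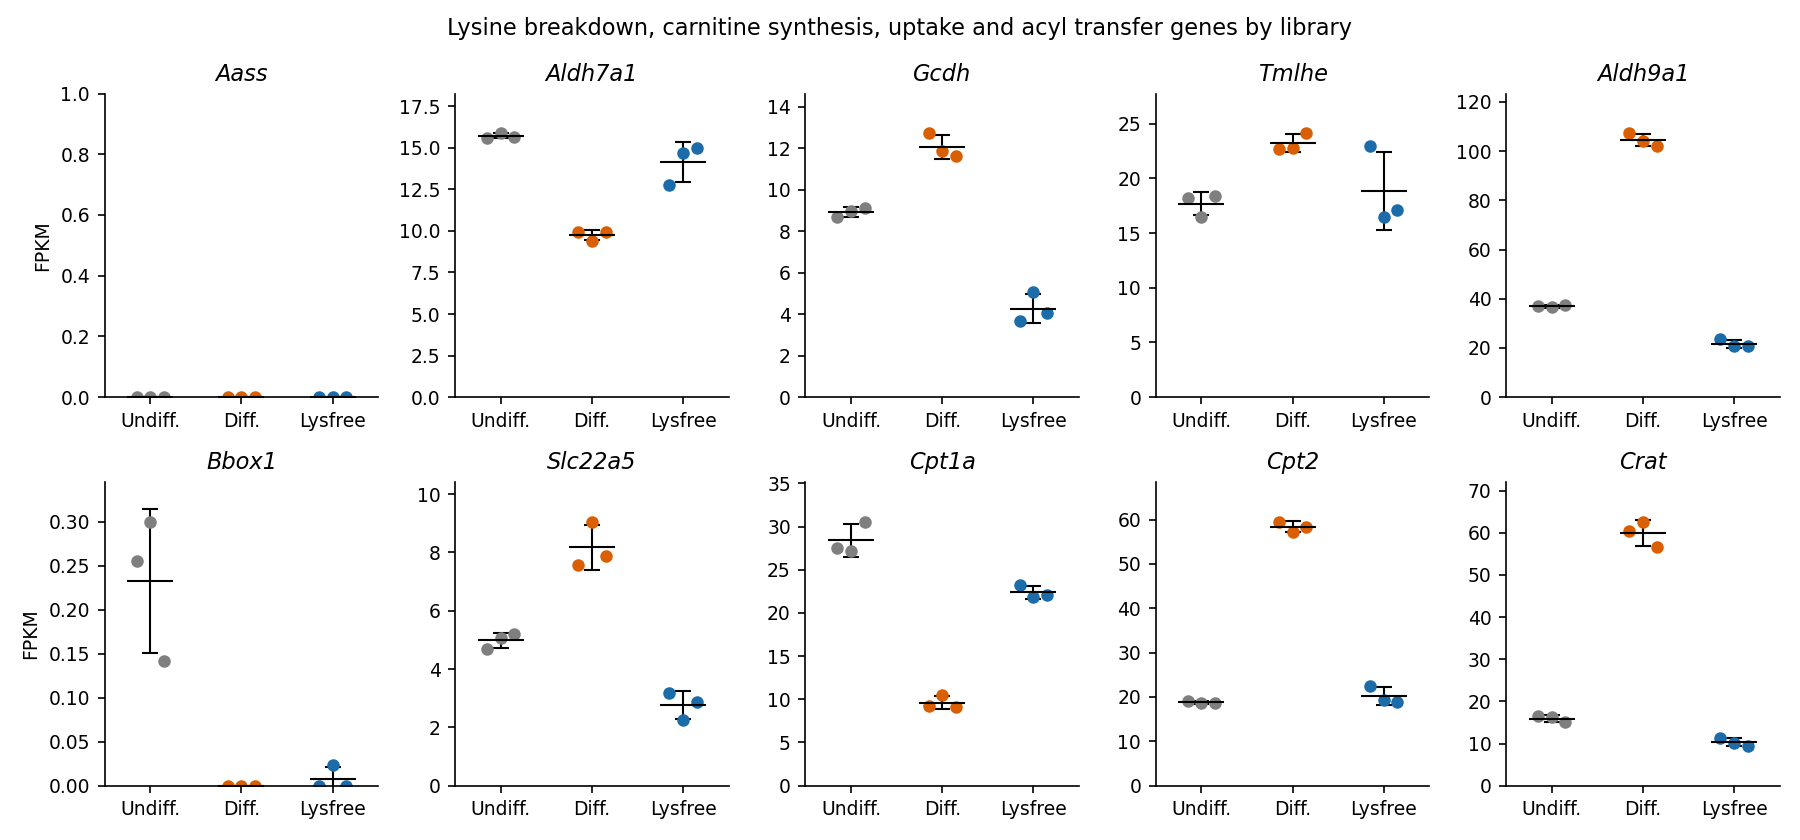
FPKM of each of the 10 genes in each library (points), with the mean and SD of the 3 libraries per group (lines). Cpt1a was lowest in Differentiated, from 9.11 to 10.5, where Aldh9a1, Cpt2, Crat, Gcdh and Slc22a5 were highest. Aass was at 0 in all 9 libraries.

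Differentiated cells were compared with Undifferentiated cells to ask what adipogenic differentiation did to this route. At an adjusted p under 0.05 (edgeR quasi-likelihood test, Benjamini-Hochberg over 24402 genes), 6 of the 9 tested genes rose and 3 fell, where 23.0% of all genes rose and 23.2% fell. With at least a 2-fold change as well, 3 rose and 2 fell, against 10.4% and 11.4% of all genes. Their median log2 fold change was 0.41, and that of all genes tested was 0.02. Lysfree cells were compared with Differentiated cells to ask what the missing lysine changed under the same hormones. Here 2 rose and 5 fell, against 19.7% and 18.8% of 24130 genes, and 1 rose and 5 fell at least 2-fold, against 8.14% and 10.5%. The median log2 fold change was -1.45 over the 8 genes above the floor of 3 counts in either group. Over all 24130 genes, with those at the floor kept, it was -0.06. Without Lysfree 1, 2 rose and 6 fell, and the counts at 2-fold did not change.

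Lysfree cells were also compared with Undifferentiated cells, to see how far their levels lay from those of cells that never received the hormones. None rose and 6 fell at an adjusted p under 0.05 in edgeR, where 18.0% of 23994 genes rose and 17.1% fell. DESeq2 and limma also found 0 higher and 6 lower, and 0 were higher at an unadjusted p under 0.05. At 2-fold, 0 rose and 2 fell (Gcdh and Bbox1), against 5.52% and 8.76% of all genes, and the median log2 fold change was -0.59 beside -0.02. Without Lysfree 1 or without Lysfree 3, Gcdh fell by less than 2-fold and the count of genes that fell at 2-fold was 1. These 3 comparisons share their groups, so their changes are given side by side and not counted as separate support. The counts come from a filter of a count above 0 in any library. Over genes that passed edgeR's expression filter, 37.3% rose and 37.7% fell between Differentiated and Undifferentiated. The shares were 33.2% and 30% between Lysfree and Differentiated, and 30.5% and 27.8% between Lysfree and Undifferentiated. Median log2 fold changes over those genes were -0.01, 0.03 and 0.02 in the same order.

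**Figure D2:**
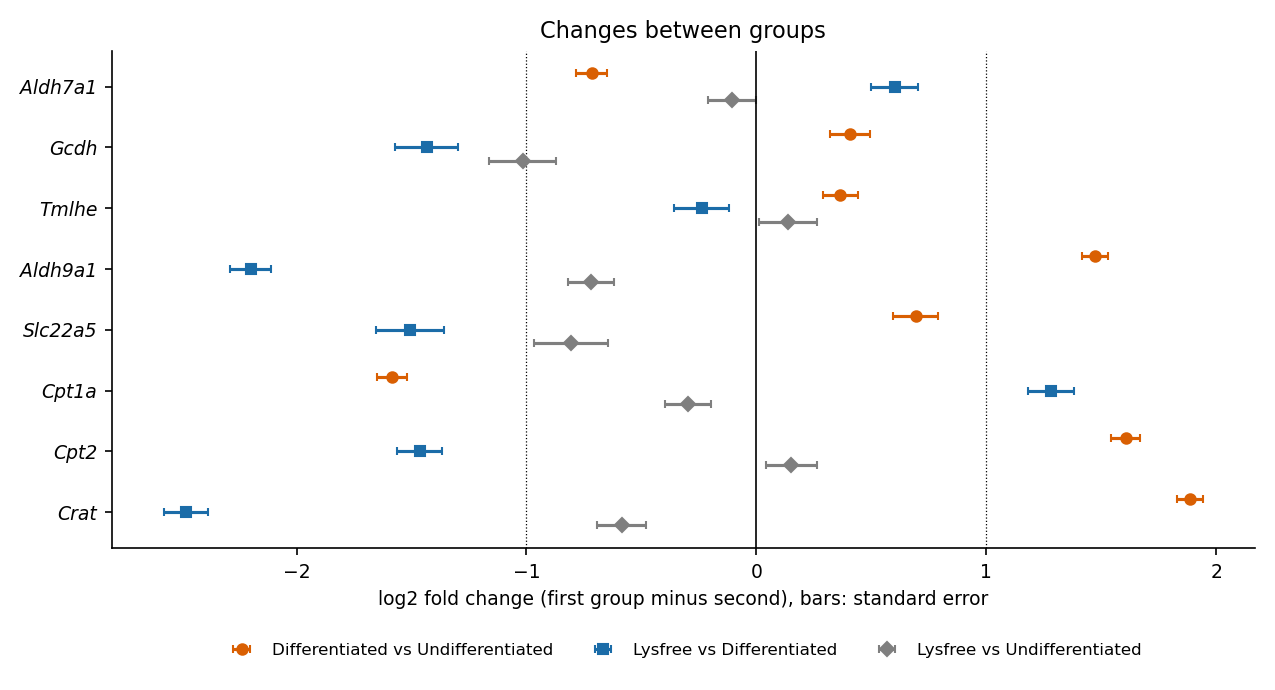
Log2 fold change of the 8 genes with counts in every library, in the 3 comparisons, with bars for the standard error and dotted lines at a 2-fold change. Aldh9a1, Cpt2, Crat, Gcdh and Slc22a5 rose in Differentiated against Undifferentiated and fell in Lysfree against Differentiated, while Cpt1a and Aldh7a1 did the reverse.

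In lysine breakdown, the entry enzyme was not detected, and the later dehydrogenases moved in opposite directions. Aass (ENSMUSG00000029695, chromosome 6, 23072173 to 23132986, minus strand, mm10) encodes the bifunctional enzyme that joins lysine to 2-oxoglutarate and splits the product, the first steps of the saccharopine route. Aass had 0 counts in all 9 libraries, which allows up to 3 counts, or 0.0358 to 0.0508 FPKM depending on the library. No change of Aass was therefore detectable at this depth.

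Aldh7a1 encodes the dehydrogenase that oxidises the aminoadipic semialdehyde formed next. Its FPKM was 15.6, 15.9 and 15.7 in Undifferentiated, 9.96, 9.38 and 9.92 in Differentiated, and 12.8, 14.7 and 14.96 in Lysfree. The Differentiated libraries were the lowest and overlapped neither of the other groups. Aldh7a1 fell in Differentiated against Undifferentiated, with a log2 fold change of -0.72 (SE 0.07, edgeR adjusted p = 1.25e-25), and rose in Lysfree against Differentiated by 0.60 (SE 0.10, edgeR adjusted p = 4.66e-05). Between Lysfree and Undifferentiated the log2 difference was -0.11 (SE 0.10, edgeR adjusted p = 0.492). Aldh7a1 overlaps Phax on the opposite strand, which had 476 to 997 counts, and the strand setting of the counting is not given in the sources used here, so reads of the overlap could belong to either gene.

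Gcdh (ENSMUSG00000003809, chromosome 8, 84886393 to 84893921, minus strand, mm10) encodes glutaryl-CoA dehydrogenase, on which the breakdown of lysine, hydroxylysine and tryptophan converges. Its FPKM was 8.67, 9.01 and 9.14 in Undifferentiated, 12.7, 11.9 and 11.6 in Differentiated, and 3.70, 5.07 and 4.04 in Lysfree. The 3 groups did not overlap, and Lysfree was the lowest. Gcdh rose in Differentiated by 0.41 (SE 0.09, edgeR adjusted p = 8.25e-06), less than 2-fold. It was 2.70-fold lower in Lysfree than in Differentiated, with a log2 fold change of -1.43 (SE 0.14, edgeR adjusted p = 1.89e-08). It was also below the Undifferentiated level, by a log2 fold change of -1.02 (SE 0.15, edgeR adjusted p = 6.25e-07), which became -0.95 without Lysfree 1 and -0.98 without Lysfree 3. Syce2, which overlaps Gcdh on the other strand, had 8 to 26 counts.

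Of the 17 other genes of lysine breakdown that were listed, 14 had counts, and Aadat, Crym and Slc25a21 were at 0 in all 9 libraries. Aadat, the aminoadipate aminotransferase, and Slc25a21, the carrier of oxodicarboxylates, act between the saccharopine steps and glutaryl-CoA, and Crym is a ketimine reductase of the pipecolate route. Between Differentiated and Undifferentiated 9 rose and 4 fell (8 and 2 at 2-fold), with a median log2 fold change of 1.26. Between Lysfree and Differentiated 1 rose and 11 fell (0 and 10 at 2-fold), with a median of -1.55 over the 13 genes above the floor. Against Undifferentiated, 1 rose and 4 fell in Lysfree (1 and 3 at 2-fold), with a median of -0.22, and without Lysfree 1 these were 2 and 8. The shares of all genes that rose and fell were 23.0% and 23.2%, 19.7% and 18.8%, and 18.0% and 17.1% in the same order. At 2-fold they were 10.4% and 11.4%, 8.14% and 10.5%, and 5.52% and 8.76%. Over genes past edgeR's expression filter, 37.3% and 37.7%, 33.2% and 30%, and 30.5% and 27.8% rose and fell. The list includes Etfa, Etfb, Etfdh, Echs1, Hadh and Acat1, which act after glutaryl-CoA or in the electron transfer that Gcdh uses and also serve the breakdown of fatty acids.

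Dhtkd1, a subunit of the dehydrogenase that makes glutaryl-CoA, followed Aldh7a1 in direction and not Gcdh. Its mean FPKM was 1.99 in Undifferentiated, 1.14 in Differentiated and 1.86 in Lysfree, and it fell by 0.83 on the log2 scale in Differentiated (edgeR adjusted p = 2.26e-09) and rose by 0.78 in Lysfree against Differentiated (edgeR adjusted p = 0.000234). Dld, a dehydrogenase subunit shared with the pyruvate and 2-oxoglutarate complexes, went from 35.7 to 170.4 FPKM in Differentiated and stood at 75.2 in Lysfree. In Lysfree Dld remained above Undifferentiated, with a log2 fold change of 1.12 (SE 0.11, edgeR adjusted p = 1.3e-10). Dld was at 88.8 FPKM in Lysfree 1 and lower, at 67.5 and 69.3 FPKM, in Lysfree 2 and Lysfree 3. Etfdh, which passes electrons from Gcdh and the acyl-CoA dehydrogenases to ubiquinone, went from 6.12 to 21.9 FPKM and was at 7.14 in Lysfree. Etfb, a subunit of the flavoprotein before it, was at 9.37, 27.0 and 6.65 FPKM, and its fall in Lysfree against Differentiated had a log2 fold change of -1.95 (SE 0.26, edgeR adjusted p = 3.12e-06). Lysfree 1 had 49 counts of Etfb, where the other Lysfree libraries had 197 and 196. Echs1, the enoyl-CoA hydratase, was at 6.94, 26.8 and 5.77 FPKM, and Acat1, which forms the final acetyl-CoA, was at 38.1, 87.1 and 22.01 FPKM in the same order.

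Sugct, which turns free glutarate back into glutaryl-CoA, had a mean of 0.456 FPKM in Undifferentiated and 0.149 in Differentiated, and at most 3 counts in each Lysfree library. With Lysfree set at 3 counts in each library, the mean of Sugct was 9.73-fold lower there than in Undifferentiated and 3.17-fold lower than in Differentiated. These folds do not cover the spread between libraries: Differentiated 2 held 5 counts and Lysfree 2 held 3. The call against Differentiated was lost without Differentiated 1 or Differentiated 3 (edgeR adjusted p = 0.0557 and 0.0834). A replicate block lost it too (edgeR adjusted p = 0.0543). Hykk, the hydroxylysine kinase, fell by 1.40 on the log2 scale in Lysfree against Undifferentiated (SE 0.20, edgeR adjusted p = 8.4e-07), from 0.938 to 0.345 FPKM.

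In carnitine synthesis, the middle enzyme followed differentiation and the last enzyme was at the floor in both groups that received the hormones. Tmlhe (ENSMUSG00000079834, scaffold GL456233.1, 159647 to 334183, plus strand, mm10) encodes trimethyllysine hydroxylase, the first step. Its FPKM was 18.3, 16.5 and 18.4 in Undifferentiated, 22.7, 22.8 and 24.2 in Differentiated, and 23.0, 16.5 and 17.1 in Lysfree. Lysfree 1 lay among the Differentiated libraries, and Lysfree 2 and Lysfree 3 lay among the Undifferentiated ones. Tmlhe rose in Differentiated by 0.37 on the log2 scale (SE 0.07, edgeR adjusted p = 3.15e-06), less than 2-fold. Between Lysfree and Differentiated the log2 difference was -0.24 (SE 0.12, edgeR adjusted p = 0.137), and it was -0.42 (edgeR adjusted p = 2.39e-08) without Lysfree 1. Between Lysfree and Undifferentiated it was 0.14 (SE 0.12, edgeR adjusted p = 0.443), and it turned to -0.05 without Lysfree 1.

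Aldh9a1 (ENSMUSG00000026687, chromosome 1, 167349991 to 167368532, plus strand, mm10) encodes the trimethylaminobutyraldehyde dehydrogenase of the step before last, an enzyme that also oxidises other amino-aldehydes. Its FPKM was 36.9, 36.4 and 37.6 in Undifferentiated, 107, 104 and 102 in Differentiated, and 23.6, 20.9 and 20.8 in Lysfree. The groups were far apart, and Lysfree lay below Undifferentiated. Aldh9a1 rose 2.77-fold in Differentiated, with a log2 fold change of 1.47 (SE 0.05, edgeR adjusted p = 2.94e-157). It fell by 2.20 on the log2 scale in Lysfree against Differentiated (SE 0.09, edgeR adjusted p = 3.27e-14), and by 0.72 against Undifferentiated (SE 0.10, edgeR adjusted p = 4.56e-07). Without Lysfree 1 these log2 fold changes were -2.28 and -0.80.

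Bbox1 (ENSMUSG00000041660, chromosome 2, 110262697 to 110314560, minus strand, mm10) encodes gamma-butyrobetaine hydroxylase, which makes carnitine itself. It had 24, 29 and 10 counts in Undifferentiated, 0, 0 and 0 in Differentiated, and 0, 2 and 0 in Lysfree, 65 counts in all. In FPKM the Undifferentiated libraries were at 0.256, 0.300 and 0.142, the lowest level of any detected member. The mean of Bbox1 was at least 5.68-fold lower in Differentiated (edgeR adjusted p = 2.29e-11) and at least 6.37-fold lower in Lysfree (edgeR adjusted p = 1.03e-05) than in Undifferentiated, with bounds set at 3 counts in each library. These bounds do not cover the spread of the Undifferentiated libraries. Lysfree and Differentiated were both at the floor, so no fold is given between them.

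Both serine hydroxymethyltransferase genes, whose products are candidates for the aldol cleavage that follows the Tmlhe step and are known mainly for one-carbon metabolism, rose in Differentiated. Shmt1 went from 6.15 to 14.2 FPKM and was at 4.92 in Lysfree, a log2 fold change against Differentiated of -1.47 (SE 0.11, edgeR adjusted p = 6.68e-10). Shmt2, the mitochondrial enzyme, went from 45.3 to 96.7 FPKM and was at 115.9 in Lysfree. Against Undifferentiated, Shmt2 rose in Lysfree by 1.40 on the log2 scale (SE 0.10, edgeR adjusted p = 2.03e-13). Against Differentiated, its log2 fold change in Lysfree was 0.33 (SE 0.09, edgeR adjusted p = 0.00509), less than 2-fold, and this call was lost in both limma fits (limma adjusted p = 0.0573 and 0.0606).

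In carnitine uptake, the main carnitine transporter gene rose with differentiation and was lowest without lysine. Slc22a5 (ENSMUSG00000018900, chromosome 11, 53864542 to 53891660, minus strand, mm10) encodes OCTN2, the sodium-dependent high-affinity carnitine transporter of the plasma membrane. Its FPKM was 4.69, 5.05 and 5.21 in Undifferentiated, 7.58, 9.06 and 7.88 in Differentiated, and 3.17, 2.24 and 2.87 in Lysfree. The 3 groups did not overlap. Slc22a5 rose in Differentiated by 0.69 on the log2 scale (SE 0.10, edgeR adjusted p = 8.13e-12). It fell by 1.51 in Lysfree against Differentiated (SE 0.15, edgeR adjusted p = 3.19e-08) and by 0.81 against Undifferentiated (SE 0.16, edgeR adjusted p = 0.000119).

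The related genes Slc22a4 and Slc22a21 lie beside Slc22a5 on chromosome 11. Slc22a4, whose product carries ergothioneine and carnitine only weakly, had a mean of 0.739 FPKM in Undifferentiated, 1.39 in Differentiated and 0.0837 in Lysfree. It fell by 3.94 on the log2 scale in Lysfree against Differentiated (SE 0.41, edgeR adjusted p = 8.28e-08), where the Lysfree libraries held 2 to 7 counts, and by 3.04 against Undifferentiated (edgeR adjusted p = 1.99e-06). Without Lysfree 2, these falls became -4.58 and -3.68. Its rise in Differentiated (log2 fold change 0.90, edgeR adjusted p = 0.000625) was lost without Differentiated 1 (0.63, edgeR adjusted p = 0.0571). In limma on log2(FPKM + 1) that rise was lost as well (limma adjusted p = 0.0573). Slc22a21 was at 1.17, 0.909 and 1.35 FPKM, and its difference between Lysfree and Differentiated (0.63, edgeR adjusted p = 0.0314) was lost without Differentiated 2, Differentiated 3 or Lysfree 1, with edgeR adjusted p from 0.0586 to 0.160. With every library kept, DESeq2 lost it (DESeq2 adjusted p = 0.0684), as did a filter of at least 10 counts in every library (edgeR adjusted p = 0.0532). Both limma fits lost it too (limma adjusted p = 0.135 and 0.142). Slc22a16, a carnitine transporter known from testis, was at 0 in all 9 libraries.

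Over the 7 other genes of carnitine supply, which include these neighbours and both Shmt genes, 6 had counts. Between Differentiated and Undifferentiated 3 rose and 0 fell (2 and 0 at 2-fold), and between Lysfree and Differentiated 2 rose and 2 fell (0 and 2 at 2-fold). From Undifferentiated to Lysfree 1 rose and 1 fell, both at least 2-fold, and 2 fell without Lysfree 1. Without that library, 1 rose and 3 fell against Differentiated. The 0 falls in Differentiated were the same in DESeq2, in limma and at an unadjusted p under 0.05, whereas limma found 0 rises in Lysfree against Differentiated. The medians over the 5 genes above the floor were 1.07, -1.47 and -0.27 on the log2 scale. The shares of all genes that rose and fell were 23.0% and 23.2%, 19.7% and 18.8%, and 18.0% and 17.1% in the same order. At 2-fold they were 10.4% and 11.4%, 8.14% and 10.5%, and 5.52% and 8.76%. Over genes past edgeR's expression filter, 37.3% and 37.7%, 33.2% and 30%, and 30.5% and 27.8% rose and fell.

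In acyl transfer, the outer and inner palmitoyltransferase genes moved in opposite directions in both comparisons with Differentiated cells. Cpt1a (ENSMUSG00000024900, chromosome 19, 3323301 to 3385732, plus strand, mm10) encodes the outer-membrane carnitine palmitoyltransferase, the step that malonyl-CoA inhibits. Its FPKM was 27.5, 27.1 and 30.6 in Undifferentiated, 9.26, 10.5 and 9.11 in Differentiated, and 23.3, 21.8 and 22.1 in Lysfree. Differentiated was the lowest, and the 3 groups did not overlap. Cpt1a was 3.00-fold lower in Differentiated, with a log2 fold change of -1.59 (SE 0.07, edgeR adjusted p = 5.08e-127). It was 2.43-fold higher in Lysfree than in Differentiated, with a log2 fold change of 1.28 (SE 0.10, edgeR adjusted p = 8.25e-10), and this was 1.23 without Lysfree 1. Against Undifferentiated it was lower in Lysfree by a log2 fold change of -0.30 (SE 0.10, edgeR adjusted p = 0.0189). That last call was lost without Undifferentiated 3, Lysfree 2 or Lysfree 3, with edgeR adjusted p = 0.153, 0.0780 and 0.0592.

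Cpt2 (ENSMUSG00000028607, chromosome 4, 107903981 to 107923610, minus strand, mm10) encodes the inner-membrane enzyme that returns the acyl group to coenzyme A. Its FPKM was 19.2, 18.6 and 18.7 in Undifferentiated, 59.6, 57.2 and 58.4 in Differentiated, and 22.6, 19.3 and 18.9 in Lysfree. The Differentiated libraries stood alone, and the Lysfree libraries overlapped the Undifferentiated ones. Cpt2 rose in Differentiated by 1.61 on the log2 scale (SE 0.06, edgeR adjusted p = 6.52e-138) and fell by 1.46 in Lysfree against Differentiated (SE 0.10, edgeR adjusted p = 7.06e-11). Between Lysfree and Undifferentiated the log2 difference was 0.15 (SE 0.11, edgeR adjusted p = 0.339), and 0.04 without Lysfree 1.

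The ratio of Cpt2 to Cpt1a in FPKM was 0.664 ± 0.0468 (SD, n = 3) in Undifferentiated, 6.10 ± 0.561 in Differentiated and 0.903 ± 0.0592 in Lysfree. The groups did not overlap in this ratio, with 0.611 to 0.696, 5.45 to 6.43 and 0.855 to 0.969. Because the genes were already known to move oppositely, the ratio is a description and was not tested.

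Crat (ENSMUSG00000026853, chromosome 2, 30400471 to 30415813, minus strand, mm10) encodes carnitine acetyltransferase, which exchanges acetyl and other short acyl groups between coenzyme A and carnitine. Its FPKM was 16.4, 16.3 and 15 in Undifferentiated, 60.4, 62.7 and 56.7 in Differentiated, and 11.2, 10.2 and 9.36 in Lysfree. Differentiated was far above both other groups, and Lysfree was the lowest. Crat rose 3.69-fold in Differentiated, a log2 fold change of 1.88 (SE 0.06, edgeR adjusted p = 4.38e-241). It was 5.58-fold lower in Lysfree than in Differentiated (log2 fold change -2.48, SE 0.10, edgeR adjusted p = 1.37e-14), the largest fall of the 10 genes in that comparison. Against Undifferentiated it fell by 0.59 on the log2 scale (SE 0.11, edgeR adjusted p = 2.95e-05). Without Lysfree 1 the last 2 log2 fold changes were -2.57 and -0.68. Dolpp1, which overlaps Crat on the other strand, had 257 to 1024 counts, so reads of the overlap could belong to either gene.

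Cpt1a was the main Cpt1 gene in all groups. Its share of the summed FPKM of Cpt1a, Cpt1b and Cpt1c was 76.2% ± 2.24 (SD, n = 3) in Undifferentiated, 80.9% ± 1.12 in Differentiated and 80.8% ± 3.50 in Lysfree. The sum itself was 37.3 ± 1.42, 11.9 ± 0.769 and 27.7 ± 0.770 FPKM, lowest in Differentiated like Cpt1a itself. Cpt1c, the form known from neurons, moved as Cpt1a did, with a mean of 8.31, 1.45 and 4.78 FPKM. Cpt1c fell by 2.55 on the log2 scale in Differentiated (SE 0.10, edgeR adjusted p = 3.57e-145) and rose in Lysfree against Differentiated by 1.79 (SE 0.15, edgeR adjusted p = 3.3e-09), but it fell by 0.75 against Undifferentiated (edgeR adjusted p = 1.24e-05). Cpt1b, the muscle form, was at 0.526, 0.818 and 0.559 FPKM, and its log2 difference of 0.59 between Differentiated and Undifferentiated did not pass (edgeR adjusted p = 0.0511). It did pass without Undifferentiated 1 (edgeR adjusted p = 0.0387). With every library kept, it passed under 2 count filters and a replicate block (edgeR adjusted p = 0.0336, 0.0255 and 0.0475). It also passed in limma on log2(FPKM + 1) (limma adjusted p = 0.0374), but not in the other fits that kept every library, DESeq2 among them. The Cpt1b difference of -0.47 between Lysfree and Differentiated (edgeR adjusted p = 0.258) became -0.95 without Lysfree 3 (edgeR adjusted p = 0.0163).

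**Figure D3:**
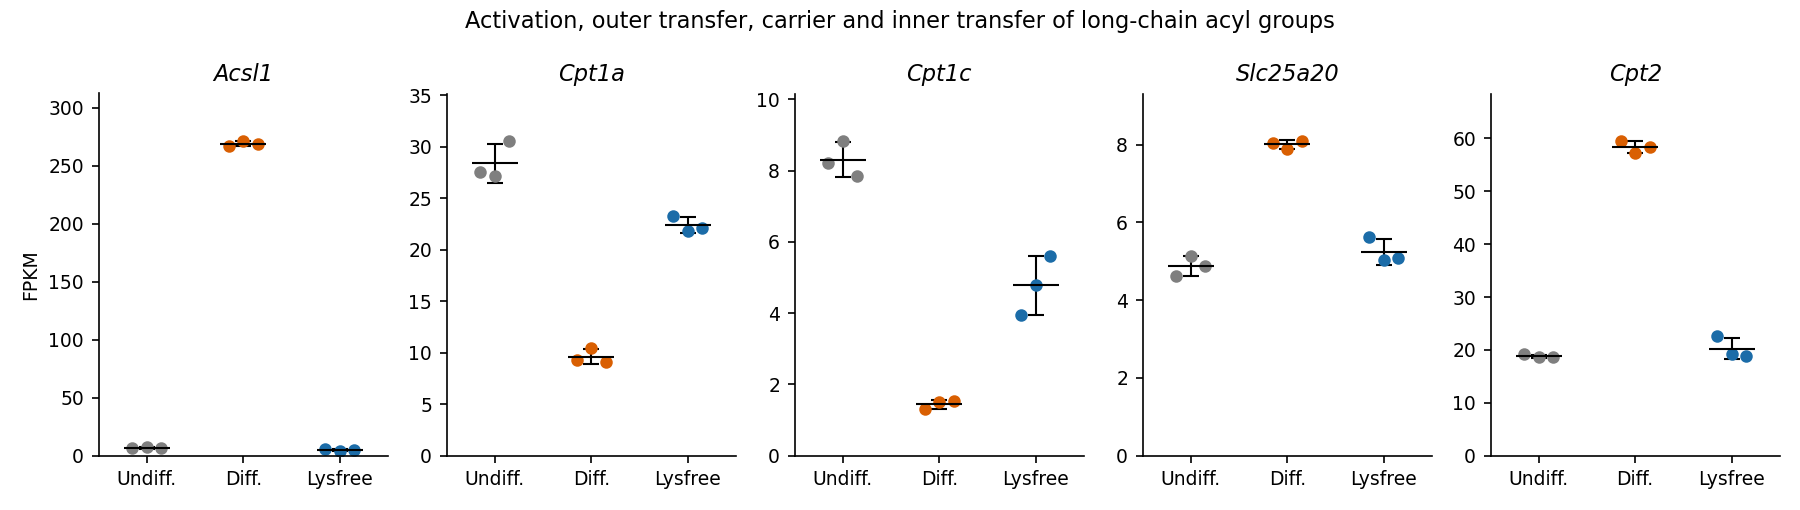
FPKM of genes that handle long-chain acyl groups, Acsl1 (activation), Cpt1a (outer transfer), Slc25a20 (exchange) and Cpt2 (inner transfer), in each library (points) with the mean and SD per group (lines). Cpt1c is shown as another gene of the Cpt1 family and is not assigned to a step. Acsl1, Slc25a20 and Cpt2 were highest in Differentiated, where Cpt1a and Cpt1c were lowest.

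Slc25a20, the exchanger that carries acylcarnitine across the inner membrane, moved with Cpt2 but by less. It rose from 4.88 to 8.01 FPKM in Differentiated (log2 fold change 0.69, SE 0.08, edgeR adjusted p = 2.65e-15), and it fell by 0.55 in Lysfree against Differentiated (SE 0.11, edgeR adjusted p = 0.000344), to 5.25 FPKM. Against Undifferentiated the Lysfree difference was 0.15 on the log2 scale (edgeR adjusted p = 0.406). Crot, the octanoyltransferase of peroxisomes, was instead highest in Lysfree, with 7.06, 6.15 and 11.3 FPKM. Crot rose in Lysfree by 0.94 on the log2 scale against Differentiated (SE 0.12, edgeR adjusted p = 2.08e-06) and by 0.72 against Undifferentiated (SE 0.12, edgeR adjusted p = 1.14e-05). Crot was at 13.9 FPKM in Lysfree 1 and lower, at 10.2 and 9.78 FPKM, in Lysfree 2 and Lysfree 3. Its log2 change of -0.23 in Differentiated (edgeR adjusted p = 0.0108) was lost without Differentiated 1 or Differentiated 2 (edgeR adjusted p = 0.0528 and 0.0591). The fit of all 9 libraries lost that change too (edgeR adjusted p = 0.131).

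Of the 14 other genes of acyl activation and transfer, 13 had counts and Acsl6 was at 0 in all 9 libraries. Between Differentiated and Undifferentiated 7 rose and 4 fell (5 and 2 at 2-fold, median log2 fold change 0.59). Between Lysfree and Differentiated 5 rose and 6 fell (2 and 4 at 2-fold, median -0.47). Against Undifferentiated, 5 rose and 3 fell in Lysfree (1 and 0 at 2-fold, median 0.13). The shares of all genes that rose and fell were 23.0% and 23.2%, 19.7% and 18.8%, and 18.0% and 17.1% in the same order. At 2-fold they were 10.4% and 11.4%, 8.14% and 10.5%, and 5.52% and 8.76%. Over genes past edgeR's expression filter, 37.3% and 37.7%, 33.2% and 30%, and 30.5% and 27.8% rose and fell.

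Acsl1, the long-chain acyl-CoA synthetase of adipocytes that supplies the substrate of Cpt1a, went from 6.83 FPKM in Undifferentiated to 269 in Differentiated, 38.6-fold, and was at 4.90 in Lysfree, 52.5-fold below Differentiated (log2 fold change -5.71, SE 0.11, edgeR adjusted p = 3.09e-19). Its fall against Undifferentiated (log2 fold change -0.43, edgeR adjusted p = 0.00394) was lost without Undifferentiated 2 (edgeR adjusted p = 0.0568). The fall was also lost in both limma fits (limma adjusted p = 0.0647 and 0.0549). Acsl3, a synthetase of lipid droplets, was at 6.85, 22.7 and 7.22 FPKM. Acsl4, which prefers arachidonate, rose to 32.4 FPKM in Differentiated from 10.9 and was at 32.6 in Lysfree, so it stayed 3.08-fold above Undifferentiated there (edgeR adjusted p = 4.39e-13). Its log2 difference between Lysfree and Differentiated was 0.07 (edgeR adjusted p = 0.639), and -0.15 without Lysfree 1 (edgeR adjusted p = 0.00372).

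Acaca and Mlycd, which make and remove the Cpt1a inhibitor malonyl-CoA, both rose in Differentiated. Acaca, the acetyl-CoA carboxylase of the cytosol, was at 3.29, 10.1 and 5.79 FPKM, and Mlycd, malonyl-CoA decarboxylase, was at 3.75, 9.12 and 3.79 FPKM. Acacb, the other acetyl-CoA carboxylase gene of the list, was at 2.11, 3.13 and 1.37 FPKM. In Lysfree against Undifferentiated, the log2 fold change was 0.86 for Acaca (edgeR adjusted p = 1.87e-08) but -0.57 for Acacb (edgeR adjusted p = 0.00122). Against Differentiated, that of Acacb was -1.13 (edgeR adjusted p = 1.44e-07). Mlycd fell by 1.20 on the log2 scale in Lysfree against Differentiated (SE 0.14, edgeR adjusted p = 3.38e-07). Acot1, a cytosolic acyl-CoA thioesterase, was at 1.67, 0.543 and 1.66 FPKM, the same directions as Cpt1a, and its log2 fold change in Lysfree against Differentiated was 1.67 (SE 0.21, edgeR adjusted p = 8.98e-07). Acot1 and Acot2 are close copies, so the split of reads between them is uncertain.

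All 10 listed beta-oxidation enzymes rose in Differentiated and fell in Lysfree against Differentiated. At 2-fold these were 4 higher and 7 lower, with median log2 fold changes of 0.92 and -1.43. None fell in Differentiated or rose in Lysfree against it in edgeR, DESeq2 or limma, or at an unadjusted p under 0.05. Against Undifferentiated, 0 rose and 5 fell in Lysfree in edgeR (0 and 0 at 2-fold, median -0.29), 0 and 6 in DESeq2, 1 and 6 at an unadjusted p under 0.05, and 1 and 7 without Lysfree 1. Of all genes, 23.0% rose and 23.2% fell in Differentiated, 19.7% and 18.8% in Lysfree against Differentiated, and 18.0% and 17.1% in Lysfree against Undifferentiated. At 2-fold these shares were 10.4% and 11.4%, 8.14% and 10.5%, and 5.52% and 8.76%. Without a fold threshold, over genes past edgeR's expression filter, they were 37.3% and 37.7%, 33.2% and 30%, and 30.5% and 27.8%. Acadm, the medium-chain acyl-CoA dehydrogenase, was at 21.5, 100.5 and 12.7 FPKM, and Acadvl, the very-long-chain enzyme, was at 20.7, 86.2 and 10.6 FPKM. Hadhb, a subunit of the trifunctional protein, was at 7.10, 30.8 and 8.19 FPKM. Cpt2, Crat, Aldh9a1, Slc22a5 and Gcdh moved in the same directions as the listed beta-oxidation enzymes in both comparisons with Differentiated. Cpt1a and Aldh7a1 moved in the opposite directions.

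**Figure D4:**
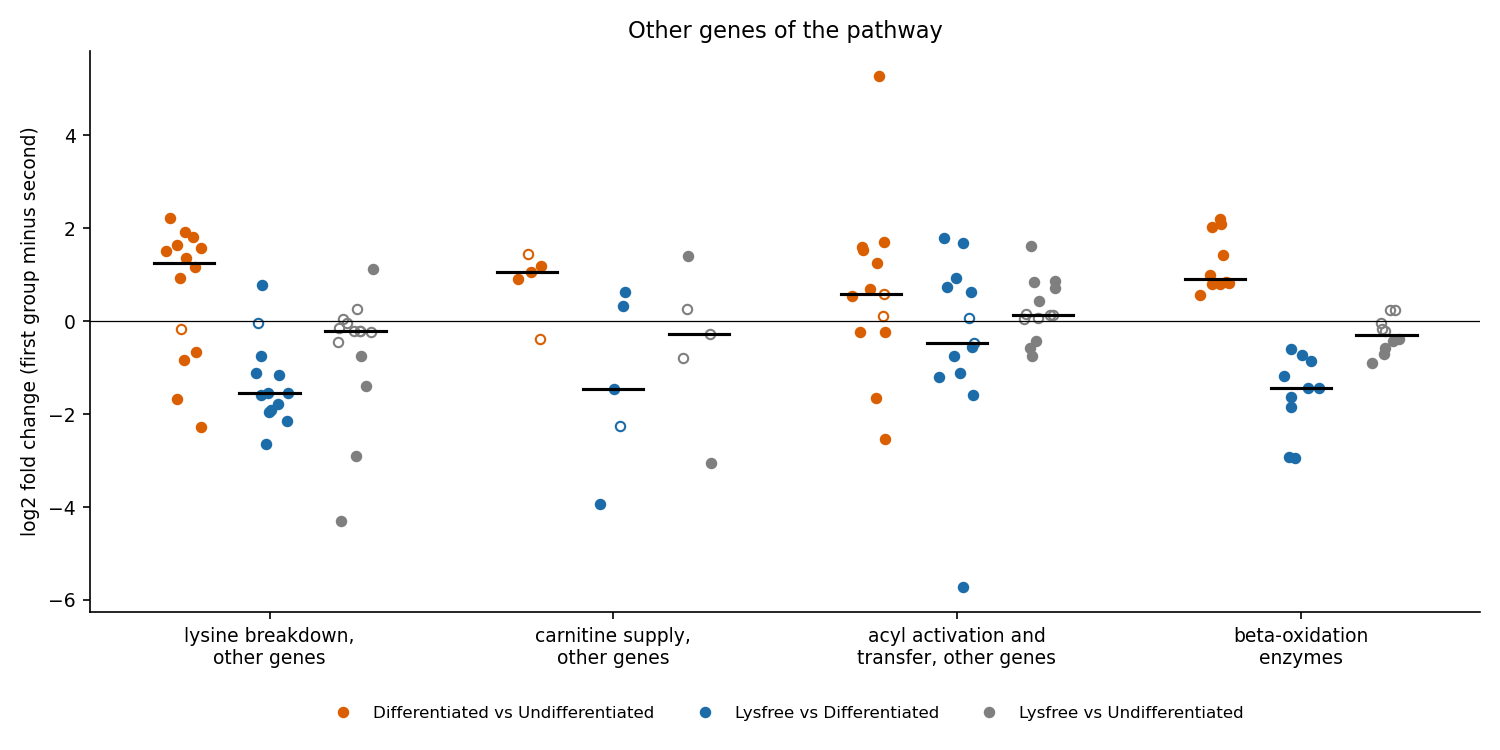
Fitted log2 fold change of the genes of the 4 lists of other pathway genes in the 3 comparisons (filled points passed an adjusted p under 0.05, open points did not, and genes at the floor in both groups are left out), with the median of each list (lines). The beta-oxidation enzymes lie above 0 in Differentiated against Undifferentiated and below 0 in Lysfree against Differentiated.

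Over all 9 libraries, the genes with the most similar pattern to each member were found by the Euclidean distance of centred log2 CPM among 12707 genes with a mean of at least 1 CPM. For Crat these were Hibadh, Cenpa and Pparg, at distances of 0.318, 0.325 and 0.389, where the median gene was at 3.43. For Cpt2 they were Lrrc59, Gnpat and Dlst, at 0.141, 0.185 and 0.215. Dlst is a subunit of the 2-oxoglutarate dehydrogenase complex and was also in the list of lysine breakdown. For Cpt1a they were Plxnb2, Wnt5a and Lrrk1, at 0.206, 0.219 and 0.226. For Aldh9a1 the nearest was Ccng2 at 0.177, for Slc22a5 Ptges at 0.317, for Gcdh Gmppb at 0.334, for Aldh7a1 Glipr2 at 0.137 and for Tmlhe Rmi1 at 0.160. These distances rest on 3 group levels and the spread within them, so many genes with the same order of groups lie close.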

How the data were processed

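Poly A RNA-seq of 3T3-L1 cells was analysed from the gene tables that the authors deposited for 9 libraries. Per the submitters' processing notes, the tools named are HISAT2 2.0.5 and featureCounts 1.5.0-p3 and the build is mm10; the annotation release and strand setting are not given in the sources used here. The authors deposited a raw count per gene and FPKM, which is scaled by gene length and library total. Depth was 15880144 to 21806693 counts per library, and the limit of 3 counts for genes at 0 covers counting error only.

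Counts were tested with edgeR 4.0.16 (quasi-likelihood, TMM, Benjamini-Hochberg) in R 4.3.3, over the 6 libraries of each pair of groups and every gene counted at least once in those 6. Called genes had an adjusted p under 0.05 and, where stated, at least a 2-fold change. SE denotes a fitted change's standard error. An adjusted p written as 0 by the software is not printed. Levels of genes are compared as FPKM and libraries' markers as CPM. List medians set genes at the floor to their bound and leave out genes at the floor in both groups.

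The members and lists were chosen with earlier results of these data known. Named beside the 10 members are Cpt1b, Cpt1c, Crot, Slc25a20, Slc22a4, Slc22a21, Aadat and Dhtkd1. In each comparison, up to 3 genes per list and direction were added by the largest called change. They had at least 1 CPM in the higher group. Genes at 0 in every library are named as well, and Acacb is given beside Acaca. For each member with at least 1 CPM, the 3 nearest genes were sought. Promoters came from a set of RefSeq windows (GRCm38.p6) that held 7 of the 10 members. Alternatives were DESeq2 1.42.0, limma 3.58.1 on log2(FPKM + 1) and log2(FPKM + 0.1), median-of-ratios factors, library size alone, 2 count filters, 1 fit of all 9 libraries, a replicate block, no fold threshold, CPM and count shares, and each library left out in turn.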

Additional observations from a re-analysis of the deposited data

How the results depend on the processing

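Of 399 recomputed log2 fold changes of the members, 393 kept their side of the 2-fold call. Tmlhe in Lysfree vs Undifferentiated, not called, turned from 0.14 to -0.05 without Lysfree 1, and the others kept their direction. The call was lost in 6: Bbox1 in both comparisons with Undifferentiated under limma on log2(FPKM + 1), and Gcdh in Lysfree vs Undifferentiated under library size alone, the same limma fit, and without Lysfree 1 or Lysfree 3. Without a fold threshold, the members higher in Differentiated vs Undifferentiated were 6 in place of 3, those higher in Lysfree vs Differentiated 2 in place of 1, and those lower in Lysfree vs Undifferentiated 6 in place of 2. Members lower in Differentiated vs Undifferentiated were 1 in place of 2 with at least 10 counts in every library, where Bbox1 is not tested, and under limma on log2(FPKM + 1). Members lower in Lysfree vs Undifferentiated were 1 under that filter, 1 under library size alone, 0 under limma on log2(FPKM + 1), and 1 to 2 when each library was left out. Genes called over the whole table numbered 5329, 4507 and 3426 in Differentiated vs Undifferentiated, Lysfree vs Differentiated and Lysfree vs Undifferentiated. They were 3488, 2891 and 2244 with at least 10 counts in every library, which tests fewer genes, 2726, 2198 and 1474 under limma on log2(FPKM + 1), and 11260, 9280 and 8428 without a fold threshold. The share of Cpt1a in its family was 71.6%, 79.15% and 77.1% in counts, which are not corrected for length, in Undifferentiated, Differentiated and Lysfree. Where not stated, the cause was not tested.

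The replicate numbers did not pair the libraries: deviations of 9 same-numbered pairs correlated from -0.0844 to 0.115, and those of 18 other pairs from -0.161 to 0.113. With the replicate number as a block, 4837, 4173 and 3179 genes were called over the whole table, and the members called were 3 higher and 2 lower, 1 higher and 5 lower, and 0 higher and 2 lower, as without it. Low counts limit Bbox1, Sugct and Slc22a4, and a difference of Aass was not detectable.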
